A study of Homo sapiens with 6 samples.

Results

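The metallothionein genes expressed in a bile duct cell line, together with the zinc sensor MTF1 and the zinc exporter SLC30A1, were followed through a 16 h exposure to TGF-beta. The group was chosen by gene name, as MT1A, MT1E, MT1F, MT1G, MT1M, MT1X, MT2A, MTF1 and SLC30A1, each read from its row on a primary chromosome. All 9 were found among the 64253 genes of the deposited table, and all 9 were among the 20992 genes with enough reads to be tested. The cells were H69, an immortalised line derived from human bile duct epithelium (cholangiocytes), at passages 30 to 32 and with no engineered allele named in the labels. The 3 vehicle libraries came from cells given vehicle, of unstated composition, and the 3 TGF-beta libraries from cells given the recombinant human cytokine at 10 ng/ml. The labels do not state separate cultures for the 3 libraries of a condition, and the spread that p-values measure here may therefore be technical.

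Metallothioneins are very small proteins rich in cysteine that bind zinc and copper, buffer the free metal in the cell and react with oxidants. MTF1 is the transcription factor that senses free zinc: once zinc has bound it, it attaches to short metal response elements in the promoters of the metallothionein genes and of SLC30A1, the transporter that moves zinc out across the plasma membrane. Metallothionein genes also respond to glucocorticoids and to oxidative and inflammatory signals, and liver is among the organs where they are best known.

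The chromosome 16 members lie close together. On hg38, MT2A, MT1E, MT1M, MT1A, MT1F, MT1G and MT1X start within a cluster of 76.0 kb, chr16:56608199-56684196, while MTF1 and SLC30A1 are on chromosome 1. The coding sequences of the 7 metallothioneins are shown in part because their likeness bears on how reads are assigned: any pair is 88.7% to 94.6% identical in bases (21 pairs), and each of the 7 holds 20 cysteine codons. Below are the GENCODE V29 coding sequences of MT2A, the metallothionein with most reads, and of MT1X and MT1E, each of which differs from MT2A at 14 of 186 bases. Capitals in MT1X and MT1E mark the bases that differ from MT2A.
MT2A: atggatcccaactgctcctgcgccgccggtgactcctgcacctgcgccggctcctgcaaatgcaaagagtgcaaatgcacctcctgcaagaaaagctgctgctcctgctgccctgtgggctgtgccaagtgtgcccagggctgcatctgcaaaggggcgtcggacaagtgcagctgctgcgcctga
MT1X: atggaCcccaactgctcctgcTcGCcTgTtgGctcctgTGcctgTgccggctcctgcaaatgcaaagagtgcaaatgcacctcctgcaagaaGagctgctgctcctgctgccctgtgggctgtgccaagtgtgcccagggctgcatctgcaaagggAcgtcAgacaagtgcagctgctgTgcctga
MT1E: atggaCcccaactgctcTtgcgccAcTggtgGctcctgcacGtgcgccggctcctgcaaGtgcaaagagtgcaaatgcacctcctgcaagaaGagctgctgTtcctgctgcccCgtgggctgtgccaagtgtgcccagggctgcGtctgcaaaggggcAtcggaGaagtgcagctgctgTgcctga

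The stretch upstream of MT1X is printed because MT1X had the largest fitted log2 fold change of the 9. It is 204 bases long, chr16:56682220-56682423 on the plus strand of GRCh38.p14, from the RefSeq promoter table, and ends before the first annotated MT1X exon. Capitals mark matches to the core of the metal response element, searched as TGCACNC or TGCGCNC on both strands (a match on the minus strand reads GNGTGCA or GNGCGCA here).
MT1X upstream: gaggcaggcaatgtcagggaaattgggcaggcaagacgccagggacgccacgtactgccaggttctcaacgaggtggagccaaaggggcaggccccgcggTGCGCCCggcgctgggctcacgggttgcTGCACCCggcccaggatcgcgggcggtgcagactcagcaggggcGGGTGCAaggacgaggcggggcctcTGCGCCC
The MT1X stretch holds 4 such matches, at -150, -122, -78 and -53 from the RefSeq start. The table has promoters, 250 bases before to 50 bases after the start, for 4 of the 9 members. In these windows MT2A had 8 matches, MT1X 4, SLC30A1 2 and MTF1 0. The windows follow RefSeq starts, which can differ from the ends of the counted rows. That of SLC30A1 lies wholly upstream of its row, and that of MT2A wholly inside its row. Of 35116 promoters in the table, 29.6% held at least 1 match, 2.30% at least 3 and 0.162% at least 5. The MT2A match at -54 and both SLC30A1 matches are given with their flanks, read on each gene's own strand.
MT2A at -54: gggctttTGCACTCgtcccgg
SLC30A1 at -49: gggttccGAGTGCAaagcaaa
SLC30A1 at 24: ccgggccGAGTGCAgctgccg
Other motifs were sparser in the same windows. The AP-1 core TGANTCA, searched on both strands, was found 1 time in MT2A and in none of MT1X, SLC30A1 and MTF1 (7.71% of all promoters held it). The short SMAD element CAGAC, on both strands, was found 1 time each in MT1X and SLC30A1 and in neither MT2A nor MTF1 (45.3% of all promoters). A match is a description of letters and not evidence of binding.

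Sequencing depth was 37205862 to 54160521 counted reads per library, and 1 CPM, the unit of counts scaled to library size, corresponded to 35.7 to 56.2 reads. Vehicle replicate 1 stood apart from the other vehicle libraries on the second principal component of log2 CPM (36.6 against -14.9 and -18.7, 11.6% of the variance). Values without it are given where a result rests on it. Of the epithelial markers, KRT7, KRT8, KRT18, KRT19 and CDH1 each exceeded 100 CPM in every library, and the summed level of the epithelial list was 4011 to 4374 CPM in vehicle and 5704 to 6214 CPM after TGF-beta. Of the hepatocyte list, ALB, APOA1, TTR and CYP3A4 were at or near 0, while SERPINA1 was called higher (58.9 to 62.3 CPM in vehicle, 71.8 to 73.9 CPM after TGF-beta) and APOB was at 20.1, 5.11 and 4.59 CPM in vehicle replicates 1, 2 and 3 and 4.99 to 6.10 CPM after TGF-beta. Of the immune list, PTPRC, CD3E and LYZ were at or near 0 and CD68 was at 9.95 ± 0.832 and 9.65 ± 0.749 CPM. The fibroblast list was at 1583 to 1761 CPM summed in vehicle and 4862 to 5584 CPM after TGF-beta, most of it COL1A1; PDGFRB rose from 66.9 ± 6.63 to 135 ± 5.42 CPM, PDGFRA fell from 6.84 ± 0.658 to 4.17 ± 0.181 CPM, DCN was under 1 CPM, and COL3A1, LUM and DES were at or near 0. The endothelial list summed to between 19.3 and 23.8 CPM in vehicle and between 10.0 and 11.5 CPM after TGF-beta. The part these marker levels play in the values below was not tested, and in such bulk samples fewer cells of a type and less RNA per cell cannot be told apart.

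MT1X, MT2A and MT1M were higher with TGF-beta, MT1E, MT1A, MT1F and MT1G were not called, and neither were the zinc sensor MTF1 and the exporter SLC30A1. Calls come from edgeR's quasi-likelihood fit over all genes, comparing TGF-beta with vehicle, at a Benjamini-Hochberg adjusted p under 0.05. The call counts were 3 higher and 0 lower among the 9, against a background over all tested genes of 40.1% called in either direction, 19.7% higher and 20.4% lower. The median log2 fold change was 0.01 for the 9, 0.26 for the 7 metallothioneins and -0.01 for all genes tested. Because the 9 were listed with this comparison already known, their fold changes and p-values describe these libraries and support nothing further. Ranges of CPM did not overlap between conditions, for 3 of the 9, each with TGF-beta higher. Over all genes 52.3% did not overlap, 25.4% with TGF-beta higher and 26.9% with TGF-beta lower.

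**Figure D1:**
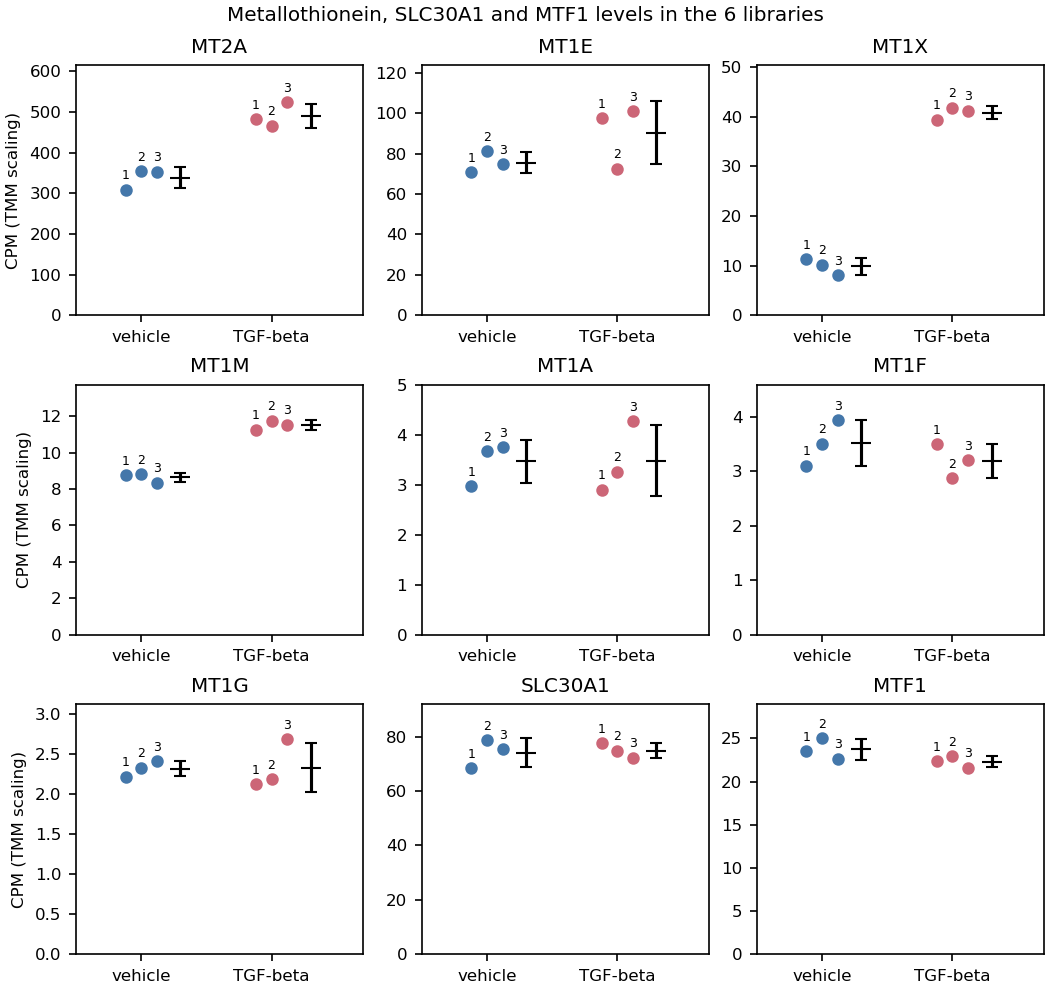
CPM with TMM scaling (vertical axes, each from 0) for the 9 genes in the 3 vehicle (blue) and 3 TGF-beta (red) libraries, numbered by replicate; black bars are the mean and SD of each condition. The conditions separate for MT2A, MT1X and MT1M, where every TGF-beta point lies above every vehicle point, and overlap for the other genes.

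MT1X, on the distal end of the cluster, encodes a metallothionein of the MT1 class. It measured 11.3, 10.2 and 8.04 CPM in vehicle replicates 1, 2 and 3 and 39.4, 41.9 and 41.2 CPM in TGF-beta replicates 1, 2 and 3. The lowest TGF-beta library was well above the highest vehicle library, and the vehicle libraries spread relatively more (coefficient of variation 16.7% against 3.13%). Its mean rose from 9.83 ± 1.64 to 40.8 ± 1.28 CPM (SD, n = 3), a 4.17-fold change or 2.06 on the log2 scale (SE 0.11; edgeR quasi-likelihood adjusted p = 1.03e-06). It ranked 286 of 20992 genes from the highest log2 fold change, and rises of at least 4-fold were called for 1.44% of all genes. Without vehicle replicate 1 the log2 fold change was 2.16, and over all 14 alternative settings it lay between 1.62 and 2.16.

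MT1X shares 321 exon bases with RP11-343H19.2 (ENSG00000259827), a processed transcript annotated on the same strand at chr16:56682470-56687807. This row counted 301, 334 and 255 reads in vehicle and 857, 1182 and 1013 reads in TGF-beta libraries. Its mean went from 6.01 ± 1.13 to 25.4 ± 1.22 CPM (SD, n = 3), a log2 fold change of 2.09 (SE 0.12), and its reads stood at a ratio of 0.611 ± 0.0257 to those of MT1X in vehicle and 0.622 ± 0.0127 with TGF-beta. Of the 50-base windows of the first MT1X transcript, 45.1% also occurred in another gene, with RP11-343H19.2 sharing the most. How reads in the shared bases were assigned is not stated in the sources used here. The level of MT1X is therefore uncertain, by an amount that was not measured. None of the other 8 members shares exon bases with another gene of the V29 annotation. For MT1A this covers its 396 bases in V29, and not all of the counted row of 418 bases.

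MT2A, the single active gene of the MT2 class and known as a target of both zinc and glucocorticoids, carried most metallothionein reads in every library. It measured 308, 354 and 353 CPM in vehicle and 482, 466 and 524 CPM in TGF-beta libraries. All TGF-beta values were above all vehicle values, and vehicle replicate 1 was the lowest library of the 6. The mean rose from 338 ± 25.9 to 491 ± 29.9 CPM (SD, n = 3), 0.54 on the log2 scale (SE 0.06; edgeR quasi-likelihood adjusted p = 9.98e-05). The change was thus smaller in proportion than that of MT1X, at rank 2274 among all genes. Without vehicle replicate 1 it was 0.47.

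MT1M, another MT1 class gene, measured 8.75, 8.81 and 8.35 CPM in vehicle and 11.3, 11.8 and 11.5 CPM in TGF-beta libraries. Replicates lay close together in both conditions and the ranges were apart. Its mean rose from 8.64 ± 0.249 to 11.5 ± 0.254 CPM (SD, n = 3), 0.42 on the log2 scale (SE 0.07; edgeR quasi-likelihood adjusted p = 0.000796). On the log2(RPKM + 1) scale, which understates changes of low genes, limma gave 0.27. With a pseudocount of 0.1 it gave 0.32, and edgeR with library totals alone gave 0.29. The median of all genes on these scales was -0.05, -0.08 and -0.14, respectively.

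MT1E, second to MT2A in level per length, measured 70.7, 81.2 and 74.8 CPM in vehicle and 97.5, 72.5 and 101 CPM in TGF-beta libraries. TGF-beta replicate 2 lay among the vehicle libraries while replicates 1 and 3 lay above them. The means were 75.6 ± 5.29 and 90.3 ± 15.5 CPM (SD, n = 3), a log2 difference of 0.26 (SE 0.14) that was not called (edgeR quasi-likelihood adjusted p = 0.195). It was called with DESeq2 (0.26, adjusted p = 0.0447) and by edgeR without TGF-beta replicate 2 (0.39, adjusted p = 0.00292), and with library totals alone the difference was 0.13.

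The remaining MT1 genes were low. MT1A measured 2.98, 3.68 and 3.76 CPM in vehicle and 2.91, 3.26 and 4.28 CPM in TGF-beta libraries. MT1F measured 3.10, 3.51 and 3.93 CPM in vehicle and 3.50, 2.87 and 3.20 CPM after TGF-beta. MT1G measured 2.22, 2.33 and 2.41 CPM in vehicle and 2.13, 2.18 and 2.68 CPM after TGF-beta. In all 3 genes the conditions overlapped, and TGF-beta replicate 3 was the highest of the 6 libraries for MT1A and MT1G. None was called (edgeR quasi-likelihood adjusted p of at least 0.395, the value of MT1F, with log2 SEs of 0.15, 0.13 and 0.13 for MT1A, MT1F and MT1G). The MT1A row spans chr16:56638666-56750276, past MT1X and into NUP93, and its exon length of 418 bases differs from the 396 bases of the V29 annotation.

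SLC30A1, which exports zinc from the cytosol and is itself a textbook MTF1 target, measured 68.3, 78.7 and 75.4 CPM in vehicle and 77.6, 74.9 and 72.2 CPM in TGF-beta libraries. The TGF-beta values lay inside the vehicle range. Means were 74.1 ± 5.29 and 74.9 ± 2.70 CPM (SD, n = 3), and the log2 difference was 0.01 with an SE of 0.06 (edgeR quasi-likelihood adjusted p = 0.863). MTF1 measured 23.5, 25.0 and 22.6 CPM in vehicle and 22.4, 22.9 and 21.6 CPM in TGF-beta libraries, with a narrow overlap. Its log2 difference was -0.09 (SE 0.06; edgeR quasi-likelihood adjusted p = 0.267), and it was called lower when library totals alone set the scale (-0.21, adjusted p = 0.0124), a scale on which the median of all genes was -0.14.

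Per gene length, the order of levels was nearly the same in both conditions, except for MT1X. RPKM, the authors' measure of reads per gene length and library size, ranked the vehicle means as MT2A, MT1E, SLC30A1, MT1M, MT1A, MT1X, MT1G, MTF1 and MT1F. Neighbours whose libraries overlapped were MT1M with MT1A and MT1G with MTF1. With TGF-beta, MT1X moved from sixth place to the third, above SLC30A1, and only MT1G with MTF1 overlapped. MT2A was at 114 ± 8.61 RPKM in vehicle and 156 ± 8.78 RPKM with TGF-beta, MT1E at 31.5 ± 2.08 and 35.4 ± 5.99 RPKM, and MT1X at 2.43 ± 0.403 and 9.51 ± 0.292 RPKM (SD, n = 3). The ratio of MT2A to MT1X in mean RPKM was 47.0 in vehicle and 16.4 with TGF-beta, whereas that of MT2A to MT1E was 3.63 and 4.40. At the low end, MT1F was at 0.816 ± 0.0981 and 0.697 ± 0.0690 RPKM. The length counts all annotated exons of a row, 1773 bases for MT1X, 1889 for MT1F and 418 for MT1A. Their first transcripts have 450, 690 and 396 bases. RPKM therefore places MT1X and MT1F lower against MT1A than length per first transcript would. The order and the ratios between genes depend on this choice. In vehicle CPM, MT1X was at 9.83, MT1F at 3.51 and MT1A at 3.48.

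**Figure D2:**
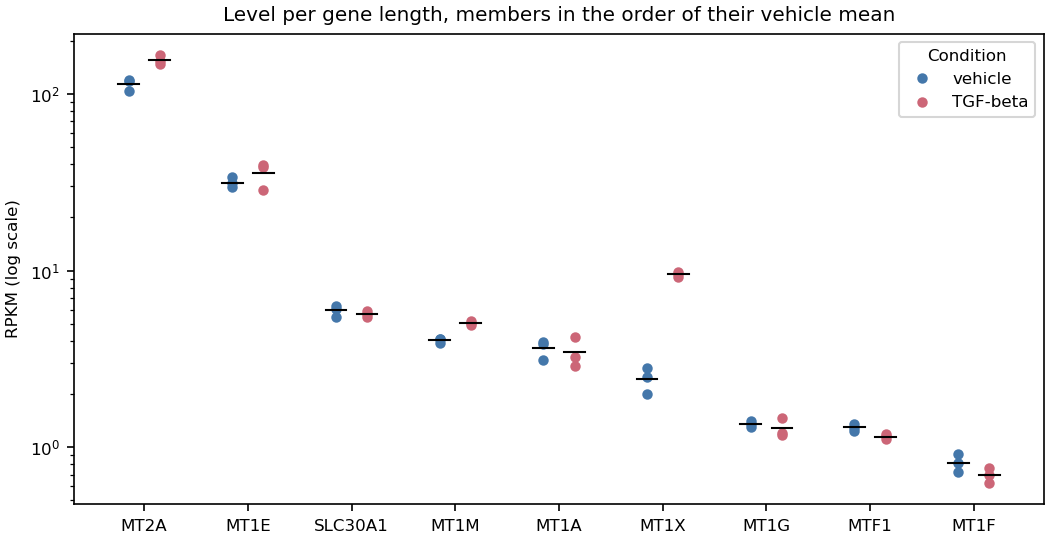
RPKM (vertical axis, log scale) of the 9 genes, ordered by vehicle mean from left to right; points are libraries (blue vehicle, red TGF-beta) and black lines condition means. MT2A lies at the top in both conditions, and MT1X is the gene whose place in the order shifts most, from 2.43 to 9.51 RPKM. Gene length counts all annotated exons, and the order between genes depends on that choice.

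Reads of near-identical genes can be split between rows, so the metallothionein rows were also summed. The sum was 433, 492 and 482 CPM in vehicle and 669.9, 632 and 718 CPM in TGF-beta libraries. Every TGF-beta sum was above every vehicle sum. The mean was 469 ± 31.5 CPM in vehicle and 673 ± 43.2 CPM after TGF-beta (SD, n = 3), a ratio of 1.44 with TMM scaling. As a share of all counts, without that scaling, the sum was 0.0489% and 0.0644%, a ratio of 1.32. Of the difference in summed CPM with TMM scaling, MT2A made up 74.4%, MT1X 15.2% and MT1E 7.20%. The share of the sum held by MT2A was 72.2 ± 0.950% in vehicle and 72.9 ± 0.855% with TGF-beta, that of MT1X 2.11 ± 0.471% and 6.08 ± 0.475%, and that of MT1E 16.1 ± 0.538% and 13.4 ± 1.65%. Leaving out MT1X, the sum was 459 ± 32.6 and 633 ± 43.4 CPM, and leaving out MT2A as well it was 121 ± 7.16 and 142 ± 15.4 CPM, a ratio of 1.18 with overlapping libraries (TGF-beta replicate 2, at 124 CPM, lay below vehicle replicate 2, at 127 CPM). The ratio of MT1X reads to MT2A reads was 3.66%, 2.87% and 2.28% in vehicle and 8.17%, 8.99% and 7.87% in TGF-beta libraries. The sum does not depend on how reads were split among metallothionein rows, but the share of each row does. RP11-343H19.2, which shares exon bases with MT1X and went from 6.01 to 25.4 CPM, was not in the sum. The sum therefore does depend on how reads were assigned between that row and MT1X. It would also depend on whether multi-mapped reads were counted, which is not given. The 50-base windows of the first transcript of each gene were compared with the other listed metallothioneins. Of these windows, 16.0% for MT1X, 20.2% for MT1G, 7.05% for MT1M, 5.34% for MT1E and 2.17% for MT2A occurred in another of them. Against any other gene the share for MT2A was 4.88%, with MT2P1, which was not in the sum, sharing the most.

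Of the other 12 metallothionein rows of the table, 3 had enough reads to be tested. MT1L, annotated as a pseudogene within the cluster, measured 24.2, 26.2 and 26.5 CPM in vehicle and 29.4, 30.2 and 28.8 CPM in TGF-beta libraries, with the conditions apart. Its log2 fold change was 0.20 (SE 0.06; edgeR quasi-likelihood adjusted p = 0.0145), and the call was lost without TGF-beta replicate 2 (adjusted p = 0.0713), with library totals alone (adjusted p = 0.284) and with limma on RPKM (adjusted p = 0.0771 and 0.0772). MT1H and MT1JP were under 1 CPM and not called, at log2 differences of 0.55 (SE 0.28) and 0.21 (SE 0.27). The 9 untested rows, MT1B, MT1CP, MT1DP, MT1HL1, MT1P1, MT1P3, MT1XP1, MT3 and MT4, had at most 21 reads in any library, and MT4 had 0 in all 6. MT3, best known from brain, was at 0.305 ± 0.0819 CPM in vehicle and 0.165 ± 0.0349 CPM after TGF-beta (SD, n = 3).

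Along the cluster, the fold changes followed no single direction from MT2A to MT1X. MT2A at the proximal end and MT1X at the distal end were both higher with TGF-beta, as were MT1L and MT1M between them, while MT1E, MT1JP, MT1A, MT1F, MT1G and MT1H, also between them, were not called. The nearest tested protein-coding genes outside were BBS2, needed for primary cilia, and NUP93, a nuclear pore component. BBS2 was at 50.9 ± 2.38 and 47.8 ± 0.629 CPM and was not called (-0.09 on the log2 scale, edgeR quasi-likelihood adjusted p = 0.162). NUP93 rose from 87.2 ± 1.03 to 107 ± 2.94 CPM (SD, n = 3), 0.29 on the log2 scale (SE 0.04; adjusted p = 0.000313 by the same test).

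**Figure D3:**
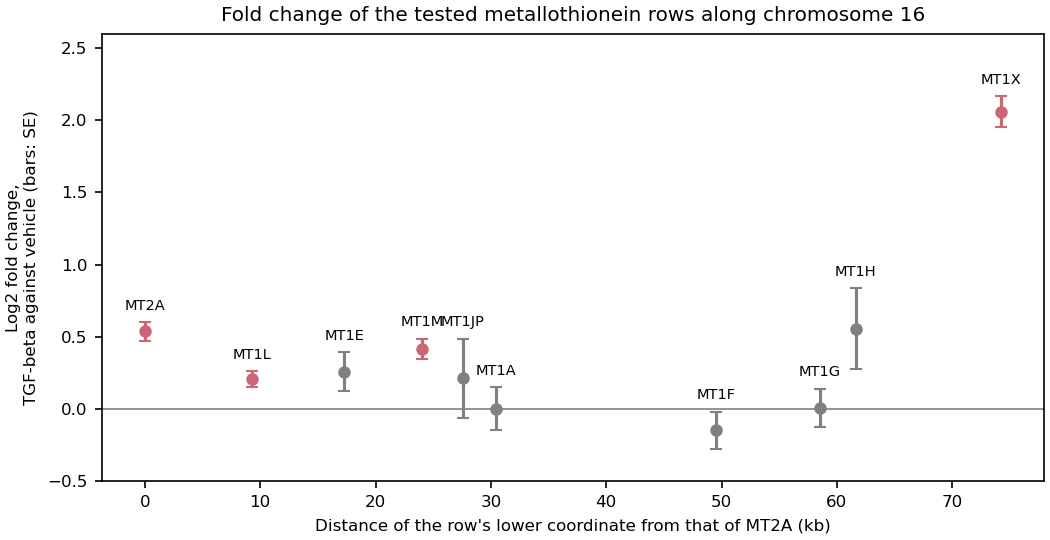
Log2 fold change, TGF-beta against vehicle (vertical axis; bars are the SE), of the 10 tested metallothionein rows against the distance of each row from MT2A along chromosome 16 in kb (horizontal axis); red points were called higher and grey points were not called. MT1X, on the right, stands at 2.06, and the other 9 rows lie between -0.15 and 0.55.

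Zinc transporters of both families held called genes, and the families were not tested against each other. Of 12 tested SLC39 genes, which import zinc into the cytosol, 6 were higher, 1 lower and 5 not called, beside 19.7% higher and 20.4% lower over all genes. Their median log2 fold change was 0.19 against -0.01 for all genes. With library totals alone these counts were 3 higher and 3 lower, beside 2698 higher and 7282 lower of all 20992 genes on that scale. With limma on RPKM 3 were higher, beside 2406 and 2402 of 15143 genes with pseudocounts of 1 and 0.1. SLC39A14, an importer of zinc and of iron not bound to transferrin, measured 204, 194 and 185 CPM in vehicle and 438, 409 and 424 CPM in TGF-beta libraries. It rose by 1.12 on the log2 scale (SE 0.05; edgeR quasi-likelihood adjusted p = 4.7e-08). SLC39A7, which releases zinc from the endoplasmic reticulum and Golgi, rose from 202 ± 7.39 to 287 ± 0.256 CPM, or 0.51 (SE 0.04). SLC39A10, a plasma membrane importer described as repressed by zinc through MTF1, rose from 42.7 ± 1.80 to 51.3 ± 3.85 CPM, 0.26 (SE 0.06; adjusted p = 0.00582), a call that was lost with library totals alone (adjusted p = 0.0896) and with limma on RPKM (adjusted p = 0.0732 and 0.0724). SLC39A11 fell from 11.4 ± 0.553 to 8.94 ± 0.385 CPM (SD, n = 3).

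Of 8 tested SLC30 exporters, SLC30A1 included, 3 were higher, 1 lower and 4 not called (50% called against 40.1% of all genes), with a median log2 fold change of 0.01. With library totals alone 1 was higher and 3 lower, beside 2698 higher and 7282 lower of all 20992 genes. With limma on RPKM 1 was higher and 2 lower, beside 2406 higher and 4510 lower of 15143 genes with a pseudocount of 1. SLC30A7, which loads zinc into the Golgi, rose from 37.5 ± 1.61 to 44.6 ± 1.31 CPM (0.25, SE 0.05), a call lost with library totals alone (0.12, adjusted p = 0.0753) and kept at 0.11 by limma on log2(RPKM + 1) (adjusted p = 0.0476). SLC30A3, best known from synaptic vesicles, was under 1 CPM in every library and rose from 0.386 ± 0.0849 to 0.748 ± 0.104 CPM (0.97, SE 0.24). SLC30A6 fell from 57.0 ± 1.53 to 50.7 ± 1.77 CPM (-0.17, SE 0.05; edgeR quasi-likelihood adjusted p = 0.0150) and lost its call without vehicle replicate 2 and without either of TGF-beta replicates 2 and 3 (adjusted p = 0.0528, 0.0788 and 0.0655). In summed CPM the exporters were at 347 to 362 in vehicle and 346 to 364 with TGF-beta, and the importers at 994 to 1031 and 1354 to 1398.

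**Figure D4:**
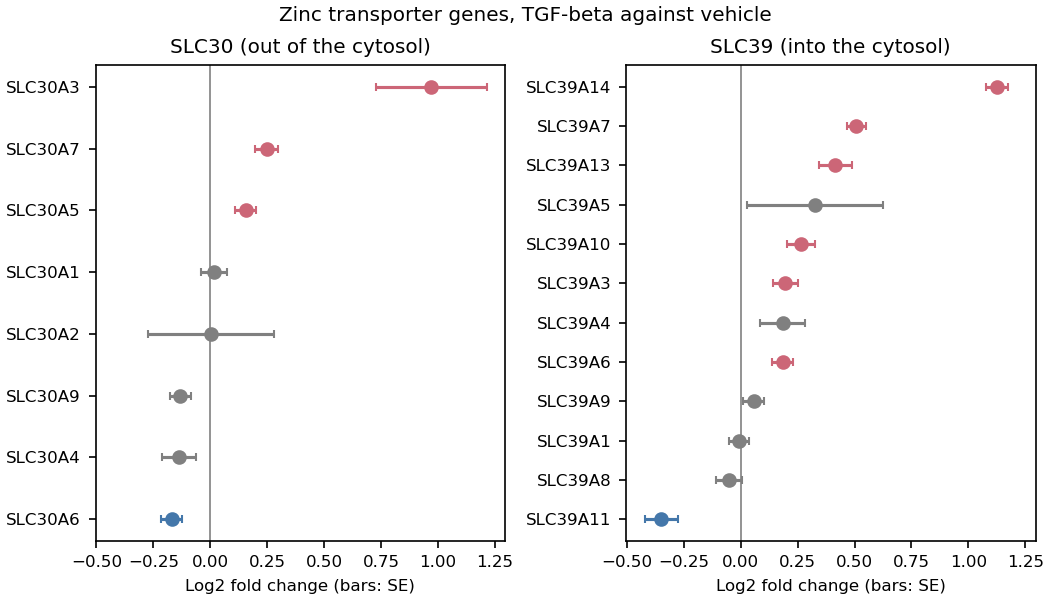
Log2 fold change, TGF-beta against vehicle (horizontal axes; bars are the SE), of the tested SLC30 genes (left panel) and SLC39 genes (right panel); red points were called higher, blue lower and grey not called. SLC30A1 lies next to 0 at 0.01, and SLC39A14 is the importer farthest to the right at 1.12.

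Copper, which metallothioneins also bind, has its own handling genes. Of 12 tested, 2 were higher, 2 lower and 8 not called (33.3% called against 40.1% of all genes), with a median log2 fold change of -0.05. Without vehicle replicate 1 the lower count was 5, and the lower calls over all genes went from 4278 to 5556. STEAP3, a metalloreductase of iron and copper, rose from 32.7 ± 2.80 to 62.6 ± 1.08 CPM (0.93, SE 0.06), and SLC31A1, the plasma membrane copper importer, rose from 94.1 ± 7.31 to 111 ± 0.786 CPM (0.24, SE 0.06; edgeR quasi-likelihood adjusted p = 0.00550), a call lost with library totals alone (adjusted p = 0.114) and with limma on RPKM (adjusted p = 0.0635 and 0.0640). ATP7A, a copper-exporting ATPase, fell from 16.8 ± 0.864 to 14.0 ± 0.0928 CPM, and COX17, a mitochondrial copper chaperone, fell from 22.7 ± 1.53 to 18.7 ± 1.31 CPM, the latter losing its call without TGF-beta replicate 2 (adjusted p = 0.0671).

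Metal and proteotoxic stress genes, several of which are induced together with metallothioneins by heavy metals, had calls in both directions. Of 14 tested, 4 were higher, 6 lower and 4 not called, beside 19.7% higher and 20.4% lower over all genes, with a median log2 fold change of -0.03. HMOX1, the haem-degrading enzyme and a classic metal-responsive gene, measured 17.5, 27.4 and 30.8 CPM in vehicle and 59.7, 55.9 and 60.7 CPM in TGF-beta libraries. It rose by 1.21 on the log2 scale (SE 0.22; edgeR quasi-likelihood adjusted p = 0.0111), and HSPB1, a small heat shock protein, rose from 142 ± 30.2 to 728 ± 61.3 CPM (2.36, SE 0.17). The inducible chaperone HSPA1B fell from 66.8 ± 3.08 to 44.3 ± 2.33 CPM and TXNRD1, a thioredoxin reductase, from 269 ± 13.6 to 194 ± 2.31 CPM (SD, n = 3). The list therefore held both rises and falls among the libraries in which MT1X and MT2A were higher.

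Glucocorticoid response genes are given because MT2A is a known target of the glucocorticoid receptor and because vehicle replicate 1 stood apart in them. FKBP5, a chaperone partner of that receptor, measured 569, 204 and 194 CPM in vehicle and 448, 425 and 416 CPM in TGF-beta libraries. TSC22D3, a leucine zipper protein, measured 71.8, 21.2 and 22.1 CPM in vehicle and 52.0, 48.5 and 52.5 CPM after TGF-beta. Vehicle replicate 1 was above all TGF-beta libraries for both genes and the other vehicle libraries were below them, whereas for MT2A vehicle replicate 1 was the lowest library. Of the 9 tested genes of the list, 1 was higher, 1 lower and 7 not called (median 0.42; 22.2% called against 40.1% of all genes). Without vehicle replicate 1 these counts were 7 higher and 2 lower, and the calls over all genes also went up, from 4145 to 5428 higher and from 4278 to 5556 lower. The higher call with all libraries was SGK1, a kinase that also responds to TGF-beta, which rose from 5.88 ± 1.54 to 33.4 ± 1.77 CPM. The receptor gene itself, NR3C1, measured 200, 238 and 232 CPM in vehicle and 147, 148 and 139 CPM in TGF-beta libraries, and fell by 0.63 on the log2 scale (SE 0.07; edgeR quasi-likelihood adjusted p = 3.73e-05). TSC22D3 was not called with all libraries (0.42, SE 0.58; adjusted p = 0.625) and was called without vehicle replicate 1 (1.23, adjusted p = 1.09e-17). The calls of MT1X, MT2A and MT1M stood with and without that library.

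**Figure D5:**
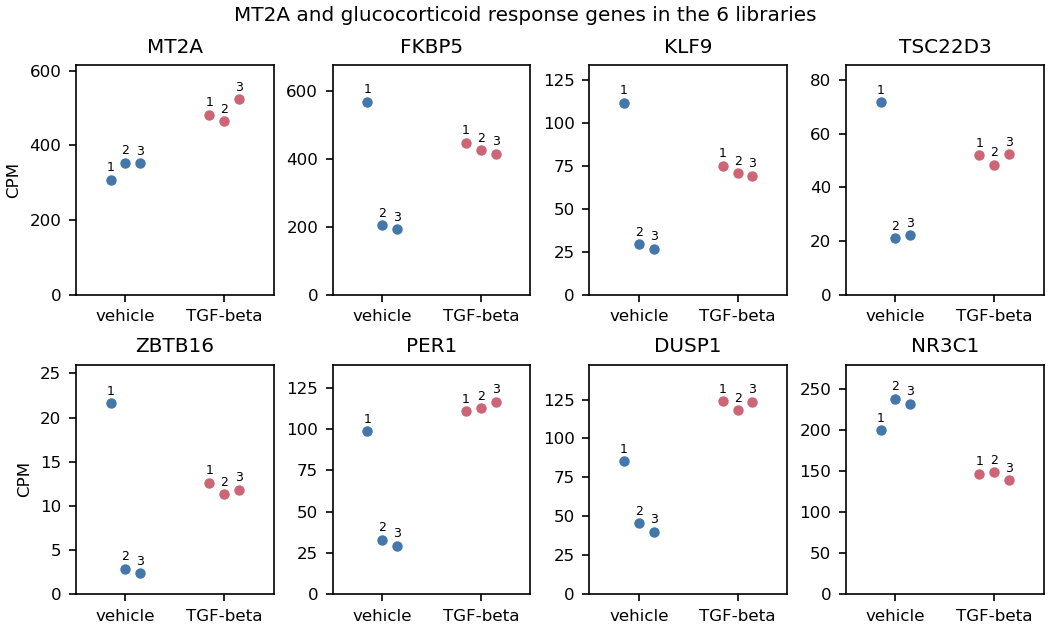
CPM (vertical axes, each from 0) of MT2A, 6 glucocorticoid response genes and the receptor gene NR3C1 in the vehicle (blue) and TGF-beta (red) libraries, numbered by replicate. Vehicle replicate 1 lies above the other vehicle libraries for FKBP5, KLF9, TSC22D3, ZBTB16, PER1 and DUSP1, and below them for MT2A and NR3C1.

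Genes whose levels ran most alike to MT2A over the 6 libraries were ranked by Pearson correlation of log2(CPM + 0.5) among 11366 protein-coding genes averaging 5 CPM or more, as a description without a p-value. The top 5 were TMED9 (0.999), UBTD1 (0.998), SMG5 (0.998), TPST2 (0.997) and DUSP12 (0.997), and 1810 genes exceeded 0.9. These 6 points share the split between conditions, so a gene that differs between conditions with little spread correlates by that split alone. For SLC30A1, which did not follow the split, the top 5 of 11365 genes were GAB2 (0.972), CSGALNACT2 (0.967), TP53BP1 (0.967), SH3GLB1 (0.967) and ARMC10 (0.964), and 30 genes exceeded 0.9.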

How the data were processed

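RNA of 6 H69 samples was sequenced, 3 per condition, and conditions were taken from the labels. Per the submitters' processing notes, bcl2fastq, STAR 2.6.1 and featureCounts of Subread were used on build hg38. The deposited table gives whole-number counts per gene, not normalized, and RPKM by the authors, per the file headers. Counts in the table are 42.0 ± 0.126% (vehicle) and 43.2 ± 0.0623% (TGF-beta) of the total that the deposited RPKM values imply. Strand setting, multi-mapped reads and annotation release are not given in the sources used here.

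Counts were fitted in R 4.3.3 with edgeR 4.0.16: TMM scaling, filterByExpr with a minimum count of 10, the robust quasi-likelihood test without a block, and Benjamini-Hochberg adjustment over 20992 genes, calling at 0.05. Standard errors equal the log2 fold change over the root of the F statistic. CPM uses TMM scaling. The steps were tested on simulated counts. Alternatives were RLE factors, library totals, no filter, a floor of 1 CPM in 3 libraries, DESeq2 1.42.0, limma 3.58.1 on RPKM (pseudocounts of 1 and 0.1, mean RPKM of 0.5 or more), a replicate block, and each library left out. For limma the authors' RPKM were put on a log2 scale.

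The members, and the 11 lists of 109 genes, were chosen with earlier results of these data known. Genes named from a pathway list are its called genes with the 2 largest rises and 2 largest falls, plus HMOX1, SLC39A10, NR3C1 and TSC22D3; FKBP5 and the other glucocorticoid genes plotted were picked after their values were seen. Promoters are from RefSeq, coding sequences and exon overlaps from GENCODE V29. Some marker genes of the lists are not reported here.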

Additional observations from a re-analysis of the deposited data

How the results depend on the processing

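The 3 calls among the 9 genes (MT1X, MT2A and MT1M) stood under all 14 alternatives, with log2 fold changes of 1.62 to 2.16, 0.41 to 0.57 and 0.27 to 0.43. Over all genes, library totals alone gave 2698 higher and 7282 lower (MTF1 then being 1 member called lower), limma gave 2406 and 2402 higher with a pseudocount of 1 and 0.1, and leaving out a library gave 3204 to 5428 higher and 3055 to 5556 lower; the cause was not tested. Signs reversed only for members that were not called: MT1A (0.0085 with RLE factors and 0.0098 with DESeq2; -0.17 to 0.11 leaving out a library), MT1G (-0.12 with library totals, -0.048 and -0.080 with limma; -0.10 to 0.065) and SLC30A1 (-0.11, -0.059 and -0.068; -0.040 to 0.061). Whether replicate numbers pair the libraries was not settled. Same-numbered deviations from the condition means correlated at 0.0652, 0.0623 and 0.0129, and differently numbered ones at -0.0702 to 0.0136. With 3 libraries per condition these values cannot decide it. The replicate block gave 4247 higher and 4330 lower genes and the same 3 and 0 among the 9. The summed metallothionein level stayed within 1 SD of its mean, at 454 to 482 CPM (vehicle) and 658 to 700.4 CPM (TGF-beta) leaving out a library. On log2(RPKM + 1), the member MT1M (0.27) and SGK1 (0.92), ATP7A (-0.15) and SLC39A11 (-0.19) moved over 1.5 times and stayed called. So did SLC30A7 (0.11 and, with a pseudocount of 0.1, 0.15), and SLC30A6 with library totals (-0.30). For genes under 1 CPM, such as MT1H and SLC30A3, few reads limit the precision.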
